A study of Mus musculus with 11 samples.

Results

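The 6 keratin genes Krt6a, Krt6b, Krt16, Krt17, Krt5 and Krt14 were followed across mouse skin tumors and skin as the wound and basal keratins. They were taken by symbol from a table of 24974 genes, in which 58 symbols are keratins, and all 6 were found and passed the filter on low values. Keratins build the intermediate filaments of epithelial cells, and each filament pairs a type I with a type II chain. Krt5 (type II) and Krt14 (type I) are the pair of the dividing basal layer of the epidermis. Krt6a and Krt6b (type II) and Krt16 and Krt17 (type I) are known for their low level in resting epidermis between hair follicles, for their steady presence in follicles and nail, and for their rise in keratinocytes at a wound edge and in squamous tumors.

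Tumors from Dlx3 KO mice (5 libraries), skin from Dlx3 KO mice (3 libraries) and skin from WT mice (3 libraries) were compared as total RNA of whole tissue. Dlx3 encodes a homeodomain factor of differentiating epidermis and hair. WT and DLX3cKO animals alike had received 3 doses of the carcinogen DMBA (100 µg in 200 µl each) on the back, 1 week apart, and tissue was taken 31 weeks after the first dose, so every group was carcinogen-exposed and the KO skin was described as unaffected by tumor. The Cre driver of the knockout, the age and strain of the animals and which tumor came from which mouse were not given in the sources used here. Tumors may therefore share animals, and the p-values measure the spread between these libraries. No tumor of WT mice was analysed here.

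Values were RPKM, reads scaled to the length of the gene and to the reads mapped in the library, in libraries of 29265111 to 75707445 alignments. Dlx3 itself had 4.16, 7.61, 7.52, 1.93 and 1.34 RPKM in tumors 1 to 5, 4.08, 8.88 and 6.72 RPKM in KO skins 1 to 3, and 49.9, 7.35 and 89.9 RPKM in WT skins 1 to 3. The value of the library labelled WT skin 2 was thus between those of KO skins. It also had 12.5 RPKM of Xist, the RNA of the inactive X chromosome of females, against 0.466 and 0.149 RPKM in WT skins 1 and 3. Xist had 11.8, 12.7, 0.616, 0.0941 and 22 RPKM in tumors 1 to 5 and 10.1, 13.9 and 14.6 RPKM in KO skins 1 to 3. It was thus low in tumors 3 and 4 and in no KO skin. Sex is read here from Xist alone, and low Xist in a tumor does not establish a male animal. Between KO and WT skins, genotype label and sex as read from Xist cannot be told apart once the library labelled WT skin 2 is left out. A sample sheet placed WT skins 1 to 3, KO skins 2 and 3 and tumor 5 in a first sequencing run and the other 5 libraries in a second. Summed markers of skeletal muscle (6 of 6 tested) ran from 16.8 to 343 RPKM in tumors, from 3235 to 8266 RPKM in KO skin and from 5897 to 12629 RPKM in WT skin, and those of adipocytes (6 of 6) from 12.9 to 61.6, from 218 to 452 and from 358 to 482 RPKM in the same groups, with 0 of these markers at 0 throughout a group. In such whole tissue a higher RPKM of a keratin can reflect more keratinocytes or more RNA per keratinocyte, which cannot be told apart. The 5 general epithelium markers (Epcam, Cdh1, Perp, Esrp1, Cldn4) summed to 897 to 2158 RPKM in tumors, 1448 to 1846 RPKM in KO skin and 1005 to 1249 RPKM in WT skin, and 0 of the 5 passed the test in any comparison.

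The type II wound keratins Krt6a and Krt6b are neighbouring copies on chromosome 15. On GRCm38 (mm10) with GENCODE M21, Krt6a lies at chr15:101689910-101694307 and Krt6b at chr15:101676023-101680287, both on the minus strand with 9 exons. Their coding sequences were identical at 1622 of 1659 aligned bases (97.8%). A read of 50 bases, the length sequenced here, often cannot separate them: of the 50-base words of the Krt6a transcript, 43.6% also occur in Krt6b, and of those of Krt6b, 44.5% occur in Krt6a. The longest coding run without a difference covers 280 bases (coding bases 34 to 313 of each). The 100 bases that separate them best (coding bases 771 to 870, counted from the start codon, 5′ to 3′, with the 14 differing bases in capitals) are shown because the difference between both rows of the table rests on such stretches.
Krt6a: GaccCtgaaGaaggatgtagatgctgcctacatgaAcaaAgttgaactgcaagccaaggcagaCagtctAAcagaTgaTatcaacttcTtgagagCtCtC
Krt6b: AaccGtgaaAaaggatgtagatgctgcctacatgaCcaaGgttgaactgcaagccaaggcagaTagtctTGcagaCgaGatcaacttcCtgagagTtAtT
The sources used here do not say how reads that match both genes were assigned. The split between Krt6a and Krt6b is therefore uncertain, and their sum was tested as well.

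Krt6a had 1502, 4403, 5168, 4931 and 1471 RPKM in tumors 1 to 5, 396, 346 and 643 RPKM in KO skins 1 to 3, and 140, 318 and 93.1 RPKM in WT skins 1 to 3. The 3 groups did not overlap: every tumor lay above every KO skin, and every KO skin above every WT skin. Krt6b had 1316, 3873, 4387, 5903 and 760 RPKM in tumors, 54.4, 115 and 529 RPKM in KO skins, and 23.2, 155 and 3.18 RPKM in WT skins. All tumors again lay above all skins, but KO and WT skins overlapped, and Krt6b spread far more among skins than its neighbour. The ratio of Krt6b to Krt6a was 0.876, 0.880, 0.849, 1.20 and 0.516 in tumors, 0.137, 0.333 and 0.823 in KO skins, and 0.166, 0.488 and 0.0341 in WT skins. Krt6b exceeded Krt6a in tumor 4 alone, and in the skins the ratio was highest in KO skin 3 and in the library labelled WT skin 2, which were also the highest skins of their groups for both genes.

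The type I wound keratins lie in the other keratin cluster, on chromosome 11: Krt16 at chr11:100246091-100248902 and Krt17 at chr11:100256217-100261029, with Krt14 at chr11:100203162-100207548, all on the minus strand with 8 exons. Krt16, the usual partner of Krt6 chains in activated keratinocytes, had 1846, 6782, 5894, 7848 and 1116 RPKM in tumors, 435, 1022 and 2118 RPKM in KO skins, and 108, 857 and 32.3 RPKM in WT skins. Tumors 1 and 5 lay below KO skin 3, so the tumors and KO skins overlapped, as did the KO and WT skins. Of the 50-base words of Krt16, 37.6% occur in another gene (25.2% in the pseudogene Gm11597 and 12.4% in Krt14). The level of Krt16 is therefore uncertain, by an amount that depends on how shared reads were counted and is not known. Krt17, a keratin of the follicle's outer sheath as well as of wounds, had 1197, 2096, 3466, 1880 and 1146 RPKM in tumors, 1801, 1469 and 1477 RPKM in KO skins, and 799, 829 and 765 RPKM in WT skins. Its WT skins were the most even set of values of any of the 6 genes in any group (798 ± 31.7 RPKM, SD, n = 3), and tumors 1 and 5 lay below every KO skin.

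Krt5, at chr15:101707070-101712898 beside the Krt6 copies (9 exons, minus strand), had 3031, 3505, 2877, 3813 and 4286 RPKM in tumors, 2792, 1805 and 1424 RPKM in KO skins, and 774, 2147 and 1120 RPKM in WT skins. All tumors lay above all skins, by a small margin over KO skin 1, and the skins of both genotypes overlapped. Krt14 had 5794, 10651, 9115, 14281 and 10198 RPKM in tumors, 3340, 2682 and 2405 RPKM in KO skins, and 1098, 3255 and 746 RPKM in WT skins. The lowest tumor stood above the highest skin, and among the KO skins lay the library labelled WT skin 2. Of the 50-base words of Krt17, Krt5 and Krt14, 3.99%, 8.52% and 14.4% occur in another gene. For Krt14 that gene is mostly Krt16, which holds 11.4% of its words.

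**Figure D1:**
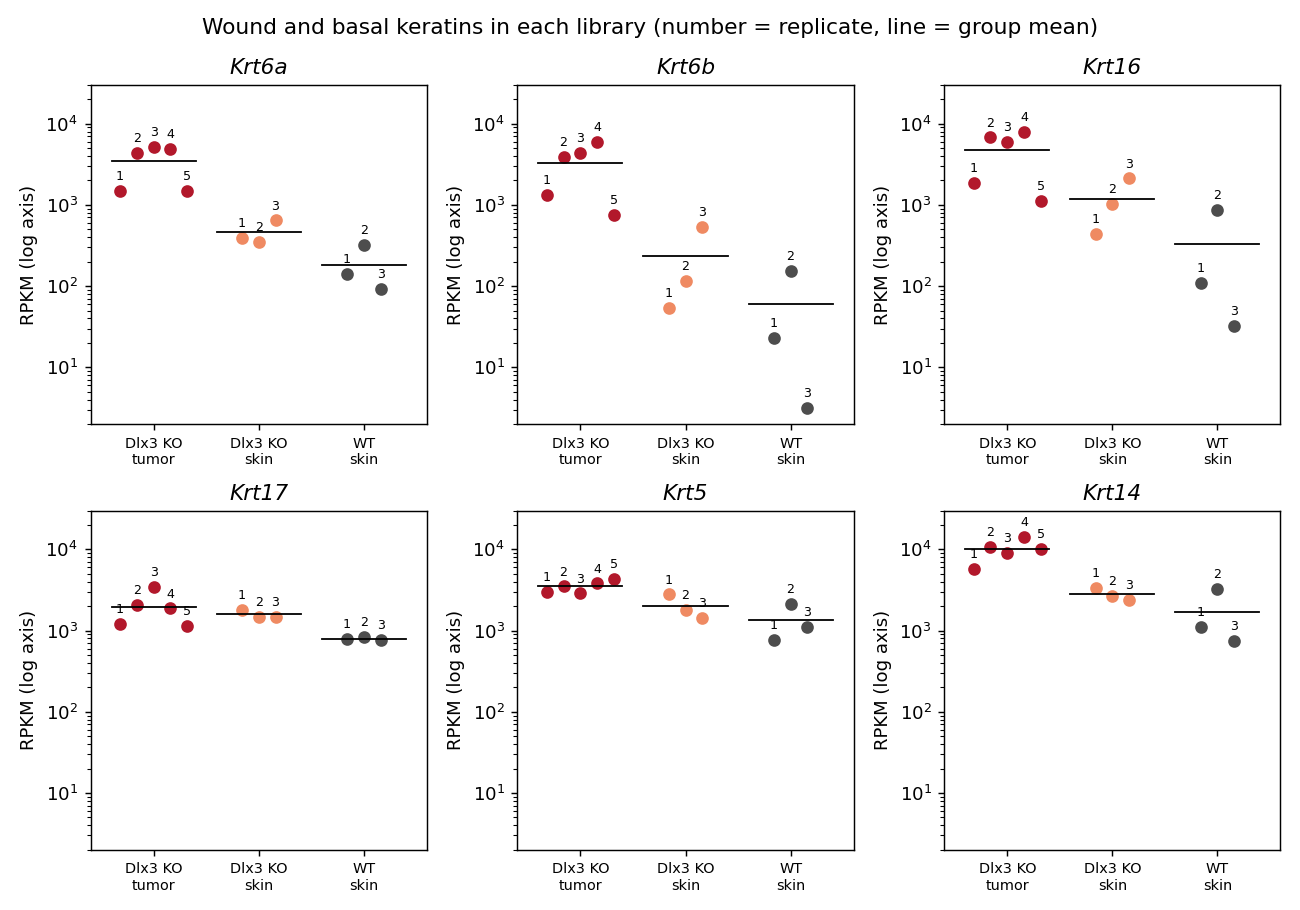
Each panel plots the RPKM of 1 keratin on a log axis, with 1 numbered point per library and a line at the group mean, for Dlx3 KO tumors, Dlx3 KO skin and WT skin from left to right. Krt6a and Krt6b of all 5 tumors sit above all skins, Krt17 of tumors and KO skins overlaps, and the library labelled WT skin 2 is the highest WT skin in all 6 panels.

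The tumor with the lowest wound keratins, tumor 5, was not the lowest for the basal ones. Tumor 5 was the lowest and tumor 1 the second lowest tumor for each of Krt6a, Krt6b, Krt16 and Krt17. Tumor 5 was nevertheless the highest tumor for Krt5 and stood in the middle for Krt14, for which tumor 1 was the lowest. The 4 wound keratins made up 39.9, 54.8, 61.2, 53.2 and 23.7% of the summed RPKM of the 6 genes in tumors, 30.5, 39.7 and 55.5% in KO skins, and 36.4, 28.6 and 32.4% in WT skins. Tumor 5 thus had the lowest wound keratin share of all 11 libraries, and its summed epithelium markers (897 RPKM) were also the lowest of the 11. The sum of Krt1 and Krt10, the pair made by keratinocytes leaving the basal layer, was 27314, 11328, 3119, 24449 and 762 RPKM in tumors, 16677, 17563 and 20509 RPKM in KO skins, and 2363, 24021 and 1821 RPKM in WT skins. It was lowest in tumor 5, and the library labelled WT skin 2 stood with the KO skins rather than with WT skins 1 and 3. Tumor 5 was also the single tumor of the first run. It had 11833 RPKM of the ribosomal RNA gene Rn45s, against 1178 to 3242 RPKM in tumors 1 to 4 and 10021 RPKM in WT skin 1. The part of run or Rn45s in its profile was not tested.

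As RPKM is scaled to gene length, levels could be ordered between genes, within the limit of shared sequence. Of the 50-base words of Krt6a, Krt6b and Krt16, 49.5%, 50.1% and 37.6% occur in another gene. For Krt17, Krt5 and Krt14 these are 3.99%, 8.52% and 14.4%. How shared reads were counted is not given, so the order may depend on it. The same limit holds for the shares and ratios below. By mean RPKM the order in tumors was Krt14 (10008 ± 3052, SD, n = 5), Krt16 (4697 ± 3027), Krt5 (3502 ± 575), Krt6a (3495 ± 1854), Krt6b (3248 ± 2160) and Krt17 (1957 ± 940). Krt14 exceeded Krt16 in 5 of 5 tumors, Krt16 exceeded Krt5 in 3 of 5 and Krt5 exceeded Krt6a in 2 of 5, so the middle of this order was not separated. In KO skin the order was Krt14 (2809 ± 480, SD, n = 3), Krt5 (2007 ± 706), Krt17 (1582 ± 189), Krt16 (1192 ± 855), Krt6a (462 ± 159) and Krt6b (233 ± 258). In WT skin it was Krt14 (1700 ± 1358, SD, n = 3), Krt5 (1347 ± 714), Krt17 (798 ± 31.7), Krt16 (333 ± 456), Krt6a (184 ± 119) and Krt6b (60.5 ± 82.6). The order of means was the same in both skins, with Krt5 above Krt17 and Krt17 above Krt16 in 2 of 3 skins of each genotype and Krt6a above Krt6b in 3 of 3. Krt16 exceeded Krt6a in 3 of 3 KO skins and in 1 of 3 WT skins, so its place in WT skin was not separated. In tumors Krt17 came last, below Krt6b in 4 of 5. Krt14 was the highest of the 6 genes in 10 of 11 libraries, and Krt5 was in WT skin 3.

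The 6 genes held 3.16, 6.56, 6.79, 7.59 and 5.41% of the summed RPKM of all genes in tumors, 2.0, 1.57 and 1.92% in KO skins, and 0.697, 1.76 and 0.654% in WT skins. Every tumor was above every skin, and 1 WT library, that labelled WT skin 2, fell within the range of the KO skins. Among the 6 genes, Krt17 held 8.15, 6.70, 11.2, 4.86 and 6.04% in tumors, 20.4, 19.7 and 17.2% in KO skins, and 27.2, 11 and 27.7% in WT skins. The share of Krt17 was thus lower in all tumors than in all KO skins, and no test was made on shares.

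**Figure D2:**
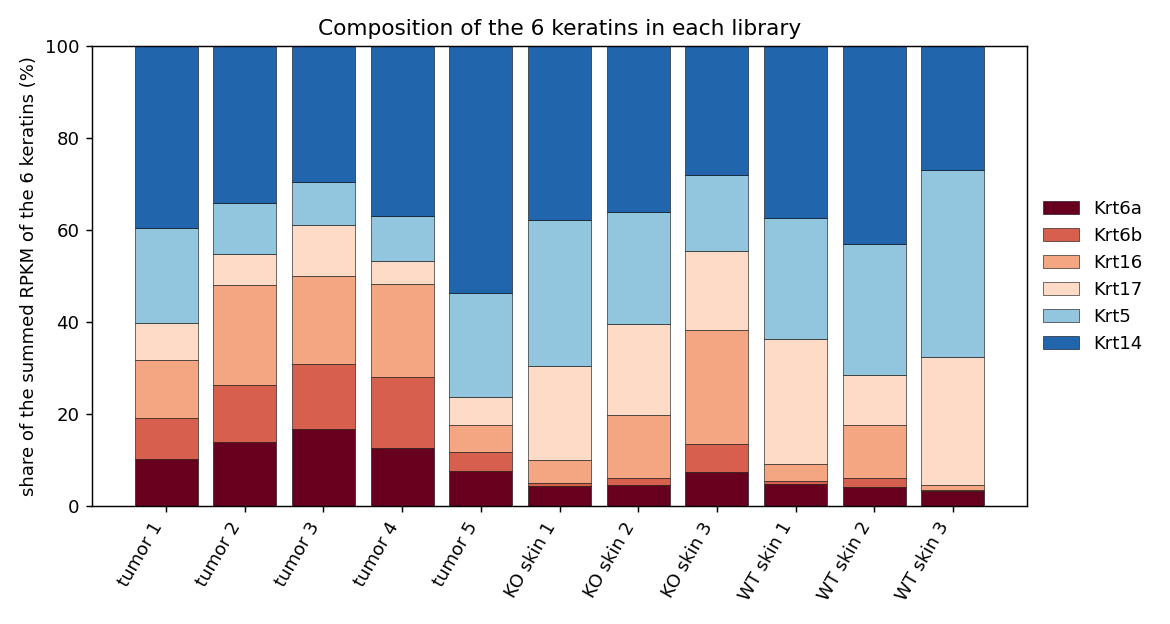
Stacked bars give the percentage of the summed RPKM of the 6 keratins held by each gene, 1 bar per library, for tumors, KO skins and WT skins from left to right. Krt6a, Krt6b and Krt16 fill a large part of the bars of tumors 2 to 4 and of KO skin 3, Krt17 a smaller part in all tumors than in all KO skins, and tumor 5 is mostly Krt14 and Krt5.

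Neither partners of a pair nor chains of the same type kept a fixed ratio. The ratio of Krt14 to Krt5 was 1.91, 3.04, 3.17, 3.75 and 2.38 in tumors, 1.20, 1.49 and 1.69 in KO skins, and 1.42, 1.52 and 0.666 in WT skins, so every tumor stood above every skin. The ratio of Krt16 to Krt17 was 1.54, 3.24, 1.70, 4.17 and 0.974 in tumors, 0.241, 0.696 and 1.43 in KO skins, and 0.136, 1.03 and 0.0423 in WT skins. Here tumor 5 lay among the skins. Summed type I over summed type II chains of the 6 genes ran only from 1.49 to 1.91 in tumors, from 1.72 to 2.31 in KO skins and from 1.27 to 2.14 in WT skins, and the 3 groups overlapped.

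**Figure D3:**
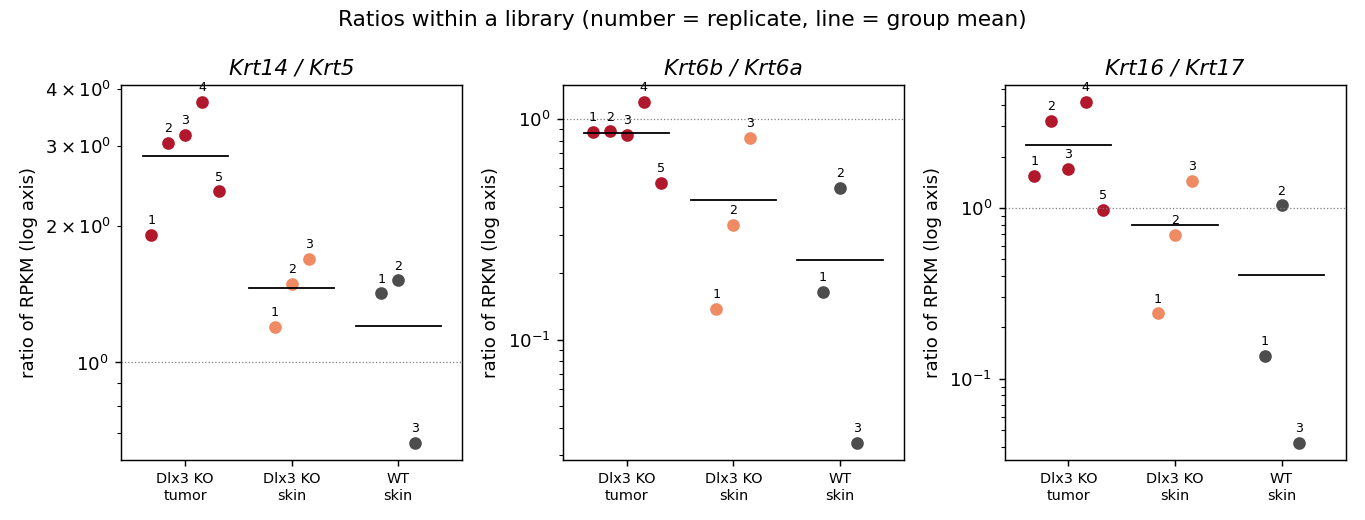
Points give the ratio of RPKM of 2 keratins within each numbered library on a log axis, lines the group means and the dotted line a ratio of 1, with tumors left of KO skin and KO skin left of WT skin. Krt14 over Krt5 is higher in every tumor than in every skin, whereas Krt6b over Krt6a and Krt16 over Krt17 overlap between tumors and skins.

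The first comparison, Dlx3 KO skin against WT skin, asks what differed between the genotypes in exposed skin without tumor. All 6 keratins averaged higher in KO skin, but none passed the test (limma on log2(RPKM + 0.5), Benjamini-Hochberg adjusted p under 0.05 over 14233 genes), and 0% of all genes were called in either direction. At an unadjusted p under 0.05 stood 3 of the 6 (Krt6a, Krt16 and Krt17), where 8.63% of all genes did, and 0 of the 6 had a q-value under 0.05 in the authors' deposited table. The log2 fold change was 1.47 ± 0.59 (SE) for Krt6a, 2.65 ± 1.26 for Krt6b and 0.98 ± 0.36 for Krt17, with limma adjusted p of 0.504, 0.596 and 0.448. Krt16 differed by 2.75 ± 1.11, Krt5 by 0.65 ± 0.36 and Krt14 by 1.0 ± 0.48 on the log2 scale, with limma adjusted p of 0.504, 0.660 and 0.593. The groups did not overlap for 2 of the 6, Krt6a and Krt17, where 11.3% of all genes were higher without overlap. The median of the 6 log2 fold changes was 1.24, and that of all genes tested was 0.06.

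Without the library labelled WT skin 2, Krt14 passed the test (1.62 ± 0.34 on the log2 scale, SE, limma adjusted p = 0.0475), and the fitted difference of Krt16 grew to 4.04 (adjusted p = 0.0763), that of Krt6b to 4.01 (adjusted p = 0.164) and that of Krt6a to 1.96 (adjusted p = 0.203). Krt5 then differed by 1.05 (adjusted p = 0.166) and Krt17 by 1.01 (adjusted p = 0.371) on the log2 scale. In this fit genotype label and sex, as read from Xist, cannot be told apart. Xist was 10.1 to 14.6 RPKM in the KO skins and 0.466 and 0.149 RPKM in WT skins 1 and 3. Among the fits with 1 library left out, only this one gave a call. That call did not hold in every fit that left out a tumor as well. The Krt6b, Krt16, Krt5 and Krt14 of the library labelled WT skin 2 lay within the range of the KO skins. Within the first run, which holds 2 KO and 3 WT skins, the log2 difference was 1.55 for Krt6a, 3.38 for Krt6b, 3.34 for Krt16, 0.89 for Krt17, 0.38 for Krt5 and 0.87 for Krt14, and the second run holds no WT skin. Summed hair shaft keratins (9 of 9 tested, 0 called) stood at 75.3 to 794 RPKM in KO skins and 719 to 4177 RPKM in WT skins, which overlapped through the library labelled WT skin 2, and suprabasal markers (7 of 7) stood at 21640 to 24462 RPKM in KO skins and 2881 to 27739 RPKM in WT skins. Their part in the keratin values was not tested.

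The second comparison, Dlx3 KO tumor against Dlx3 KO skin, sets tumors against unaffected skin of the same genotype. Krt6a and Krt14 rose in tumors, Krt6b missed the threshold narrowly, and Krt16, Krt5 and Krt17 did not pass. Krt6a averaged 3495 ± 1854 RPKM in tumors and 462 ± 159 RPKM in KO skin (SD, n = 5 and 3), fitted as 2.76 ± 0.53 on the log2 scale (SE, limma adjusted p = 0.00974). Krt14 averaged 10008 ± 3052 RPKM in tumors and 2809 ± 480 RPKM in KO skin, fitted as 1.79 ± 0.43 on that scale (limma adjusted p = 0.0298). Of all genes tested, 0.998% were called higher and 6.56% lower in this comparison, so a rise was the rarer call.

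Krt6b had the largest fitted difference between tumor and KO skin of the 6, 4.07 ± 1.13 (SE) on the log2 scale with a limma adjusted p of 0.0517, and stood at rank 7 of 14233 genes by log2 fold change. Krt6a stood at rank 46, Krt16 at rank 101, Krt14 at rank 120, Krt5 at rank 459 and Krt17 at rank 2436. The rows of Krt6a and Krt6b summed gave 3.16 with a limma adjusted p of 0.0149. That sum is less exposed to how reads were divided within the pair. It would still change if shared reads were dropped or counted for both genes. Krt16 differed by 1.90 ± 0.99 (adjusted p = 0.254) and Krt5 by 0.84 ± 0.32 (adjusted p = 0.133) on the log2 scale. Krt17 differed by 0.19 ± 0.32 (adjusted p = 0.745) and its sign turned under other settings, for example at -0.0089 with quantile scaling and -0.046 without tumor 3. The groups did not overlap for 4 of the 6 genes (Krt6a, Krt6b, Krt5 and Krt14), where 4.65% of all genes were higher without overlap, and the median of the 6 log2 fold changes was 1.84 against -0.23 for all genes. With median-ratio or quantile scaling the median of all genes moved up by 0.25 or 0.32, and all of the 6 but Krt17 stayed above 0. The authors' deposited table gives ratios of tumor to KO skin of 6.77 for Krt6a (q-value 0.0535), 16.8 for Krt6b (q-value 0.133) and 3.45 for Krt14 (q-value 0.0891), and there 0 of the 6 had a q-value under 0.05.

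The call of Krt6a held in 10 of 11 fits with 1 library left out and was lost without KO skin 2 (limma adjusted p = 0.053). That of Krt14 held in 4 of the 11 (without tumor 1 or any WT skin) and was lost in the other 7, at adjusted p between 0.0543 and 0.131, while its log2 fold change stayed between 1.64 and 1.97. It was also lost without a filter on low values (adjusted p = 0.0914) and with sequencing run as a term (adjusted p = 0.0606). Krt6b passed in 3 of the 11, without tumor 1 (adjusted p = 0.0373), the library labelled WT skin 2 (adjusted p = 0.0278) or WT skin 3 (adjusted p = 0.0324). Within the first run, with tumor 5 against KO skins 2 and 3, the log2 difference was 1.64 for Krt6a, 1.62 for Krt6b, -0.40 for Krt16, -0.36 for Krt17, 1.42 for Krt5 and 2.01 for Krt14. Within the second, with tumors 1 to 4 against KO skin 1, it was 3.18 for Krt6a, 5.95 for Krt6b, 3.49 for Krt16, 0.16 for Krt17, 0.24 for Krt5 and 1.5 for Krt14. Krt6a, Krt6b, Krt14 and Krt5 were higher in tumor in both runs, Krt5 by only 0.24 in the second. Krt16 and Krt17 took opposite signs, and each run holds a single library on 1 side.

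**Figure D4:**
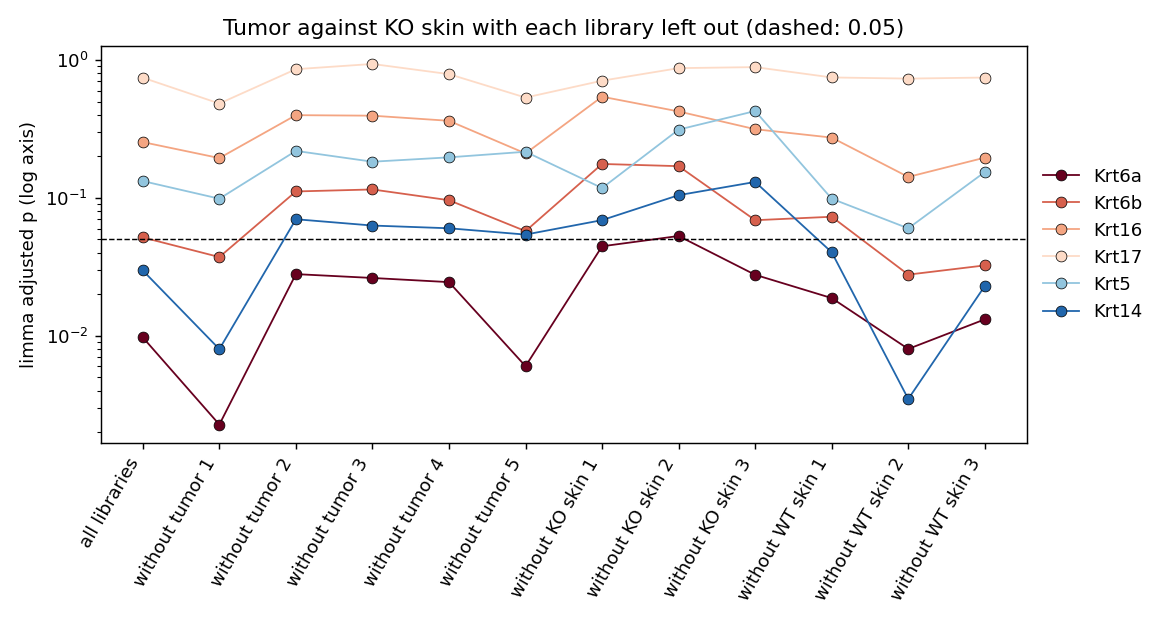
Points give the limma adjusted p of tumor against KO skin on a log axis for each keratin, with all libraries at the left and with each library left out in turn, and the dashed line marks 0.05. Krt6a lies below the line in all but the fit without KO skin 2, Krt14 crosses it in 7 fits, and Krt17, Krt16 and Krt5 lie above it throughout.

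The muscle and adipocyte markers given above were lower in every tumor than in every skin, and their part in the keratin values was not tested. The 6 genes were also set over the summed epithelium markers of the same library. Perp is the largest part of that sum, at 680 to 1941 RPKM in tumors, 1183 to 1481 RPKM in KO skins and 771 to 969 RPKM in WT skins. These ratios therefore follow Perp more than the other markers. Krt6a then had 0.785 to 2.81 in tumors, 0.188 to 0.444 in KO skins and 0.0926 to 0.255 in WT skins, and the tumors still lay above all skins. Krt14 had 3.03 to 11.4 in tumors, 1.45 to 2.0 in KO skins and 0.742 to 2.61 in WT skins, likewise without overlap, and Krt6b had 0.688 to 2.83, 0.0325 to 0.366 and 0.00316 to 0.124 in those groups in turn. On this scale Krt5 of tumors (1.33 to 4.78) overlapped with that of KO skins (0.978 to 1.67) and WT skins (0.748 to 1.72), unlike its RPKM. Krt17 of tumors (0.626 to 1.61) overlapped with that of KO skins (0.796 to 1.08), as by RPKM, and also with that of WT skins (0.664 to 0.773), unlike its RPKM. Krt16 of tumors (0.966 to 4.32) overlapped with that of KO skins (0.260 to 1.46) and not with that of WT skins (0.0322 to 0.686). The measure is a description without a test.

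The third comparison, Dlx3 KO tumor against WT skin, spans genotype and tumor at once. All 6 keratins rose, where 3.56% of all genes were called higher and 12.0% lower, and for all 6 the RPKM of the groups did not overlap (3.89% of all genes were higher without overlap). Set over the epithelium markers, Krt5 and Krt17 did overlap, as given above. Krt6b had 3248 ± 2160 RPKM in tumors and 60.5 ± 82.6 RPKM in WT skin (SD, n = 5 and 3), fitted as 6.72 ± 1.13 (SE) on the log2 scale (limma adjusted p = 0.00241), and was at rank 2 of 14233 genes by log2 fold change. Krt16 rose by 4.65 ± 0.99 (adjusted p = 0.00963), Krt6a by 4.22 ± 0.53 (adjusted p = 0.000316) and Krt14 by 2.79 ± 0.43 (adjusted p = 0.00127) on the log2 scale. Krt5 rose by 1.49 ± 0.32 (adjusted p = 0.0104) and Krt17 by 1.17 ± 0.32 (adjusted p = 0.0301). A q-value under 0.05 was given for 5 of the 6 in the authors' deposited table, and Krt17, with a ratio of 2.25, had 0.0595.

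Krt6a, Krt6b, Krt5 and Krt14 kept this call in 11 of 11 fits with 1 library left out. Krt16 lost it without WT skin 3 (adjusted p = 0.0511), the library with its lowest value, and Krt17 kept it in 6 of 11 and lost it without tumor 2, tumor 4 or any of the WT skins, at adjusted p of 0.0591 to 0.0943. Without the library labelled WT skin 2, the log2 fold changes were 8.07 for Krt6b, 5.93 for Krt16, 4.71 for Krt6a, 3.41 for Krt14 and 1.90 for Krt5, all called, and 1.20 for Krt17 (adjusted p = 0.0648). Within the first run, where tumor 5 is the single tumor beside the 3 WT skins, the log2 differences were 4.99, 2.94, 3.19, 2.88 and 1.80 for those 5 genes in the same order and 0.52 for Krt17. With sequencing run as a term, 3 of the 6 were called (Krt6a, Krt6b and Krt14), and Krt16, Krt5 and Krt17 had adjusted p of 0.106, 0.111 and 0.310. This comparison shares the WT skins with the first and the tumors with the second, so the 3 are not independent.

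**Figure D5:**
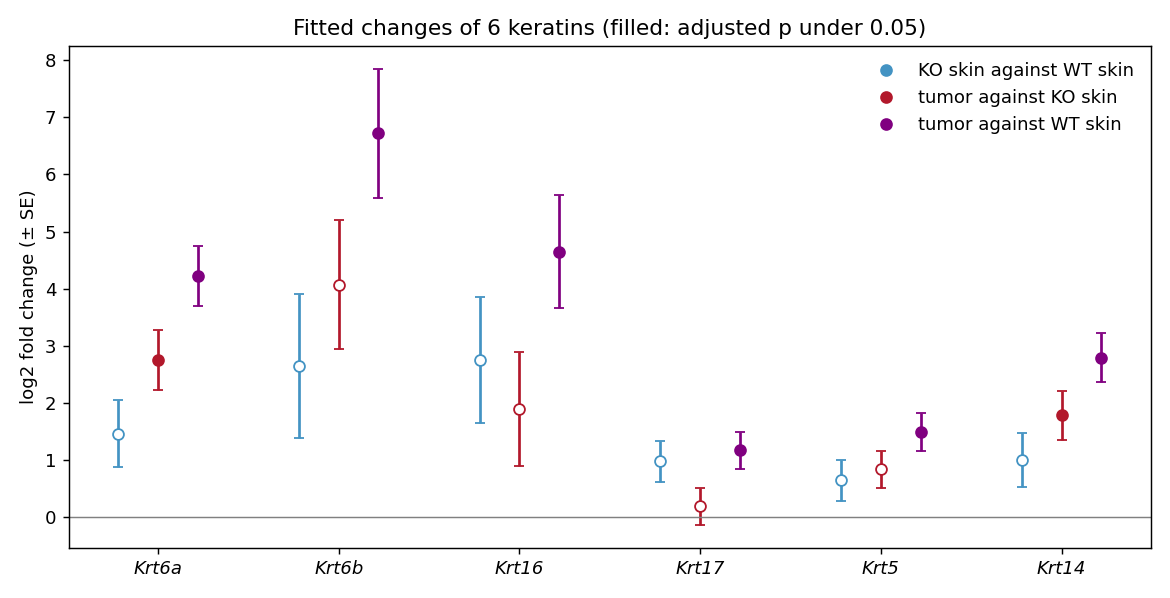
Points give the fitted log2 fold change of each keratin in the 3 comparisons, bars the SE, and filled points an adjusted p under 0.05. All points lie above 0; 0 of 6 are filled for KO skin against WT skin, 2 of 6 for tumor against KO skin and 6 of 6 for tumor against WT skin.

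Of 13 other keratins of epidermis and follicle epithelium, 0 were called higher in tumor against KO skin and 2 lower (6.56% of all genes were called lower), and 1 of 13 had a log2 fold change above 0 (29.7% of all genes did). Krt75, a keratin of the follicle's companion layer, fell by 3.10 (limma adjusted p = 0.0463) and Krt23 fell by 2.75 (adjusted p = 0.0329) on the log2 scale. Against WT skin, 0 rose and 5 fell in tumors (12.0% of all genes were called lower), among them Krt15 and Krt19, keratins of follicle stem cells, which fell by 2.11 (adjusted p = 0.0252) and 2.40 (adjusted p = 0.0140), Krt75, which fell by 4.05, Krt77, which fell by 3.75, and Krt23, which fell by 2.34. Krt19 was near the floor, at 0.103 to 1.14 RPKM in tumors and 1.95 to 12.8 RPKM in WT skins, highest in the library labelled WT skin 2. The median log2 fold change of the list was -1.34 against KO skin and -1.43 against WT skin. Krt1 and Krt10 did not pass in any comparison. In KO skin against WT skin 0 of the 13 passed, and the smallest p were those of Krt79 (2.14, adjusted p = 0.513) and Krt2 (-1.40, adjusted p = 0.555). Krt13, a keratin of mucosal epithelium outside that list, rose by 6.28 in tumor against KO skin (adjusted p = 0.00126). It averaged 380 ± 562 RPKM in tumors and 1.82 ± 0.35 RPKM in KO skin (SD, n = 5 and 3).

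Of 10 genes of basal layer adhesion, 3 rose and 0 fell in tumor against KO skin, where 0.998% of all genes were called higher, and all 10 were above 0 (29.7% of all genes were) with a median of 0.97. In tumor against WT skin 7 rose and 0 fell, where 3.56% of all genes were called higher, and all 10 were above 0 (38.4% of all genes were) with a median of 1.28. Lama3, a chain of basement membrane laminin, rose by 1.22 (limma adjusted p = 0.0268) against KO skin, and Itga6, the integrin chain of hemidesmosomes, by 1.01 (adjusted p = 0.0479). Against WT skin the genes that rose included Cd44, the hyaluronan receptor (1.13, adjusted p = 0.00184), Itga6 (1.56, adjusted p = 0.00322), Lama3, Lamb3 and Itgb4. In KO skin against WT skin 0 of 10 passed, with Cd44 at 0.77 (adjusted p = 0.267) and Itga6 at 0.55 (adjusted p = 0.665).

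Of 10 genes that link keratin filaments to desmosomes and hemidesmosomes, 0 were called in tumor against KO skin (Eppk1 -0.66, limma adjusted p = 0.288, and Col17a1 0.71, adjusted p = 0.293, had the smallest p) and 0 in KO skin against WT skin (Pkp1 0.96, adjusted p = 0.484, and Jup 1.07, adjusted p = 0.553). In tumor against WT skin 1 rose (3.56% of all genes did), the desmosomal plakophilin Pkp1 (1.10, adjusted p = 0.0446). The median log2 fold changes were 0.45 for KO skin against WT skin, -0.12 for tumor against KO skin and 0.42 for tumor against WT skin.

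Of 13 transcription factors known to act on these keratin genes, 4 rose and 0 fell in tumor against WT skin, where 3.56% of all genes were called higher and 12.0% lower. They were Nfe2l2, the oxidative stress factor NRF2 (1.88, limma adjusted p = 0.0118), the AP-1 members Junb (1.09, adjusted p = 0.0140) and Fosl1 (2.77, adjusted p = 0.0170), and Klf4 of differentiating epidermis (1.16, adjusted p = 0.0345). Against KO skin 0 passed, with Nfe2l2 at 1.30 (adjusted p = 0.0826) and Fosl1 at 1.65 (adjusted p = 0.148). There only 4 of the 13 were above 0 (29.7% of all genes were), with a median of -0.19 beside -0.23 for all genes. In tumor against WT skin 9 of the 13 were above 0 (38.4% of all genes were), with a median of 0.46. In KO skin against WT skin 0 passed, with Klf4 at 1.69 (adjusted p = 0.256) and Fos at 1.07 (adjusted p = 0.553).

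Wound edge and alarm genes, of which 20 of 22 were tested and the other two (Il36a and Il36g) were not analysed here, showed 11 rises and 0 falls in tumor against WT skin (3.56% of all genes were called higher), all 20 above 0 (38.4% of all genes were) with a median of 2.25. S100a9 and S100a8, whose products form calprotectin, rose by 5.31 (limma adjusted p = 0.00171) and 4.42 (adjusted p = 0.00276), and the EGF receptor ligand Hbegf by 2.70 (adjusted p = 0.00456). Slpi rose there by 6.61, and the cornified envelope genes Sprr1b and Sprr2d by 4.41 and 4.26 (adjusted p = 0.000153, 0.00599 and 0.0102 by limma). In tumor against KO skin 3 rose: the protease inhibitor Slpi (5.24, adjusted p = 0.00135), the defensin Defb4 (3.21, adjusted p = 0.0332) and the EGF receptor ligand Areg (1.77, adjusted p = 0.0436). There 16 of the 20 were above 0 (29.7% of all genes were) with a median of 0.41. Defb4 was near the floor in KO skins (0.248 to 1.255 RPKM) and had 1.91 to 30.7 RPKM in tumors. Il1a, an interleukin, and Ereg were lower in every tumor than in every KO skin without passing (-1.22 and -1.15, adjusted p = 0.0850 and 0.0745) and were singled out after their values were seen. Slpi averaged 738 ± 753 RPKM in tumors and 13.2 ± 4.0 RPKM in KO skin (SD, n = 5 and 3). In KO skin against WT skin 0 of 20 passed, although all 20 were above 0 (56.7% of all genes were) with a median of 1.54. The smallest p there were those of the cornified envelope gene Sprr2d (4.58, adjusted p = 0.256) and of the EGF receptor ligand Ereg (1.85, adjusted p = 0.256).

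Predicted, clone-named and RNA genes were left out of a search for similar profiles. From the rest, the genes outside the 6 whose profiles over the 11 libraries were most like each keratin were taken by the root mean square (RMS) difference of log2 values centred on each gene's mean, as a description over libraries of 3 groups. For Krt6a, whose own RMS about its mean was 1.95, they were Gsto1 (0.637), Clcf1 (0.709) and Tmprss11a (0.718). For Krt16 (own RMS 2.35) they were Sprr1b (0.534), Lce3d (0.734) and Gsdmc (0.758), and for Krt6b (3.25) Sprr2a3 (1.17), Lce3b (1.23) and Sprr2a1 (1.23), so both lists hold precursors of the cornified envelope. For Krt5 (0.749) the nearest was Lamb3 (0.140), a chain of the basement membrane laminin, followed by Il4ra (0.257) and Als2cl (0.284). For Krt14 (1.32) they were the epithelial ETS factor Elf3 (0.389), the glucose transporter Slc2a1 (0.444) and Ucn2 (0.495), and for Krt17 (0.639) Glipr1 (0.238), Kcne3 (0.246) and Endou (0.268). Krt16 differed from Krt6b by 1.11, less than those 3 genes did, whereas the other 5 keratins had no member nearer than the 3 genes named for them. Krt5 and its partner Krt14 differed by 0.687, Krt6a and Krt14 by 0.821, Krt6a and Krt16 by 0.918, and Krt5 and Krt17 by 0.651, more than the spread of Krt17 itself.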

How the data were processed

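After depletion of ribosomal RNA, 11 libraries were read from a single end over 50 bp, as the labels' protocols state. The submitters' processing notes name bcl2fastq 2.20.0.422, TopHat2 2.1.1, Bowtie, Partek and the build mm10. The file headers describe the values as RPKM per gene that the authors made in Partek. The authors' deposited table also holds group means as log2 values, a ratio for each comparison, and a p-value and q-value from an ANOVA whose terms the headers do not state. Strand and the treatment of reads with several matches are not given in the sources used here.

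From the RPKM, log2(RPKM + 0.5) was fitted for 14233 genes, those whose mean over all libraries reached 0.5 RPKM, with the 3 groups together, using limma 3.58.1 in R 4.3.3 (trend and robust, 8 residual degrees of freedom). Tests were two-sided, adjusted by Benjamini and Hochberg within a comparison over all genes, with a call at 0.05. RPKM hold no counts, so precision was judged from the spread between libraries. RPKM are shares of a library, so abundant transcripts that change move all others. Log2 fold changes are on the log2(RPKM + 0.5) scale. The fit was tested on simulated data. No 2 libraries were identical.

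The members and lists were chosen with earlier results of these data known. Named genes were the 6 keratins, the called members of each list (at most 6, smallest p first, or else the 2 with the smallest p), Dlx3, Krt13 and the 3 nearest profiles of each keratin; 1 gene that the rule names is not reported here. Xist and the sums of marker genes were given as properties of libraries. Ratios and shares were described without a test. Coding sequences and coordinates came from GENCODE M21 on GRCm38.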

Additional observations from a re-analysis of the deposited data

How the results depend on the processing

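The log2 fold changes of the 6 keratins were refitted under 25 alternative settings in each comparison. In tumor against WT skin and in KO skin against WT skin, 148 of 148 such values stayed above 0; in tumor against KO skin 143 of 148 did. The exceptions in tumor against KO skin were Krt17 at -0.0089 with quantile scaling, -0.077 with sequencing run as a term, -0.046 without tumor 3 (-0.046 to 0.35 with each library left out) and -0.36 in the first run alone, and Krt16 at -0.40 in the first run alone, where a single tumor enters. The number of the 6 called higher in tumor against KO skin (2 with all libraries) was 1 without a filter on low values, 1 with sequencing run as a term, 1 without the 2 libraries with the highest Rn45s, 5 with library weights and 0 in the first run alone, and 0 to 3 with each library left out. In tumor against WT skin (6 with all libraries) it was 3 with sequencing run as a term, 2 in the first run alone and 4 to 6 with each library left out. In KO skin against WT skin (0 with all libraries) it was 0 to 1 with each library left out. None of the 6 was called lower under any of the settings run. Why these counts moved was not tested, beyond the fewer samples of some settings. With the replicate number as a block, 1 of the 6 was called in tumor against KO skin, 4 in tumor against WT skin and 0 in KO skin against WT skin; the labels tie these numbers to no shared animal or day, and same-numbered samples deviated together by correlations of only -0.406 to 0.185. Chosen after seeing the data, leaving out the library labelled WT skin 2 together with each tumor gave 0 to 2 calls in KO skin against WT skin (1 without tumor 1, 1 without tumor 4 and 2 without tumor 5), and 4 in tumor against KO skin without tumor 1; there Krt17 was at -0.046 without tumor 3. Over all genes, 1075 were called in tumor against KO skin, 347 to 2867 with each library left out and 5969 with library weights, and 2208 in tumor against WT skin, 1308 to 3284 with each library left out and 705 with sequencing run as a term. KO skin against WT skin had 0 calls by limma with all libraries, 229 without the library labelled WT skin 2 and 13 without tumor 5. Shared sequence limits the separation of Krt6a from Krt6b, and no depth per gene was used.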
